A study of Mus musculus with 10 samples.

Results

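The Hox genes encode homeodomain transcription factors that specify position along the body axis, and their occupancy by RBPJ was examined in brain pericytes. The genes were taken from the annotation by symbol (Hoxa, Hoxb, Hoxc or Hoxd followed by a number), which gave 39 of the 21938 protein-coding genes of GENCODE M21. They lie in 4 clusters: HoxA with 11 genes, HoxB with 10, HoxC with 9 and HoxD with 9. The peaks described are those whose centre fell inside a cluster or within 100 kb of its outermost gene. There were 5 such peaks among the 11094 RBPJ peaks of the series, and 1 of them lay inside a cluster.

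In Notch signalling, RBPJ is the protein that contacts DNA, and it recruits coactivators or corepressors to its sites. Sequencing of DNA precipitated with an RBPJ antibody (ChIP-seq) mapped its binding in untreated RD1 cells, labelled as mouse brain pericytes, the mural cells of capillaries, and grown in pericyte medium on collagen I. The series holds 2 replicates each of RBPJ, H3K4me1, H3K4me3, histone H3 and input, and peak files of the 2 RBPJ samples were used. Strain, genotype, age and the number of animals or clones behind RD1 were not given in the labels. The study's methods describe brain pericytes cultured from adult Rbpj lox/lox mice, which carry a conditional allele of the gene for RBPJ, without naming RD1. Cell identity could not be checked from a peak list. Both RBPJ files are copies of a single consensus list without heights or read counts, so no spread between replicates and no test between samples is available, and the counts below describe that list.

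Within a cluster all Hox genes are read from the same strand. Paralog group 1 lies at the 3′ end, and its members are active early and anteriorly in the embryo, whereas the groups with high numbers lie at the 5′ end and act late and posteriorly. The clusters are classical targets of Polycomb repression and of trithorax activation, and retinoic acid acts on their 3′ genes. In the nervous system, expression of Hox genes is known for starting at the hindbrain and running into the spinal cord, and the forebrain normally lacks it.

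The Hoxa7 peak is the single interval inside a Hox cluster, and the part of it that precedes the transcription start site (TSS) is shown first, followed by the intergenic peak beyond Hoxb1, the region peak with the core RBPJ recognition sequence TGGGAA in its central 200 bp. Sequences are from GRCm38.p6, and capitals mark TGGGAA or its reverse complement. The Hoxa7 stretch, on the minus strand and reading towards the start, holds no match and has no capitals.
Hoxa7, chr6:52221855-52222123, minus strand: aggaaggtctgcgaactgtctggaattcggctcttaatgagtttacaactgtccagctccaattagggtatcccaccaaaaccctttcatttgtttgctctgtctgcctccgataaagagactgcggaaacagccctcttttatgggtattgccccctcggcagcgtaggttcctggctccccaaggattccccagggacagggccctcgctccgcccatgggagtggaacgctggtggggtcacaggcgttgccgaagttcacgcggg
Beyond Hoxb1, chr11:96407797-96408026, plus strand: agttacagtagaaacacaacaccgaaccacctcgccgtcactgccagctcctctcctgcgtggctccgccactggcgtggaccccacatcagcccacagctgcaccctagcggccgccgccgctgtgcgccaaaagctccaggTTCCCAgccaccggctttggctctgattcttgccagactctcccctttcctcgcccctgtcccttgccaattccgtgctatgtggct

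Few Hox promoters carried an RBPJ peak. A peak centre lay within 1 kb of a coding TSS at 1 of the 39 Hox genes (2.56%), Hoxa7. Across all protein-coding genes this share was 27.4% (6014 of 21938). Peaks were sparse on chromosomes 4, 7, X and Y, where 218 of 4481 genes had one within 1 kb (4.86%). No Hox gene lies there, and without these chromosomes the share of all genes was 33.2%. Other values over all genes or the genome include these chromosomes unless stated. Within 5 kb, Hoxa9 joined Hoxa7, for 2 of 39 genes (5.13%), against 31.7% of all genes.

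**Figure D1:**
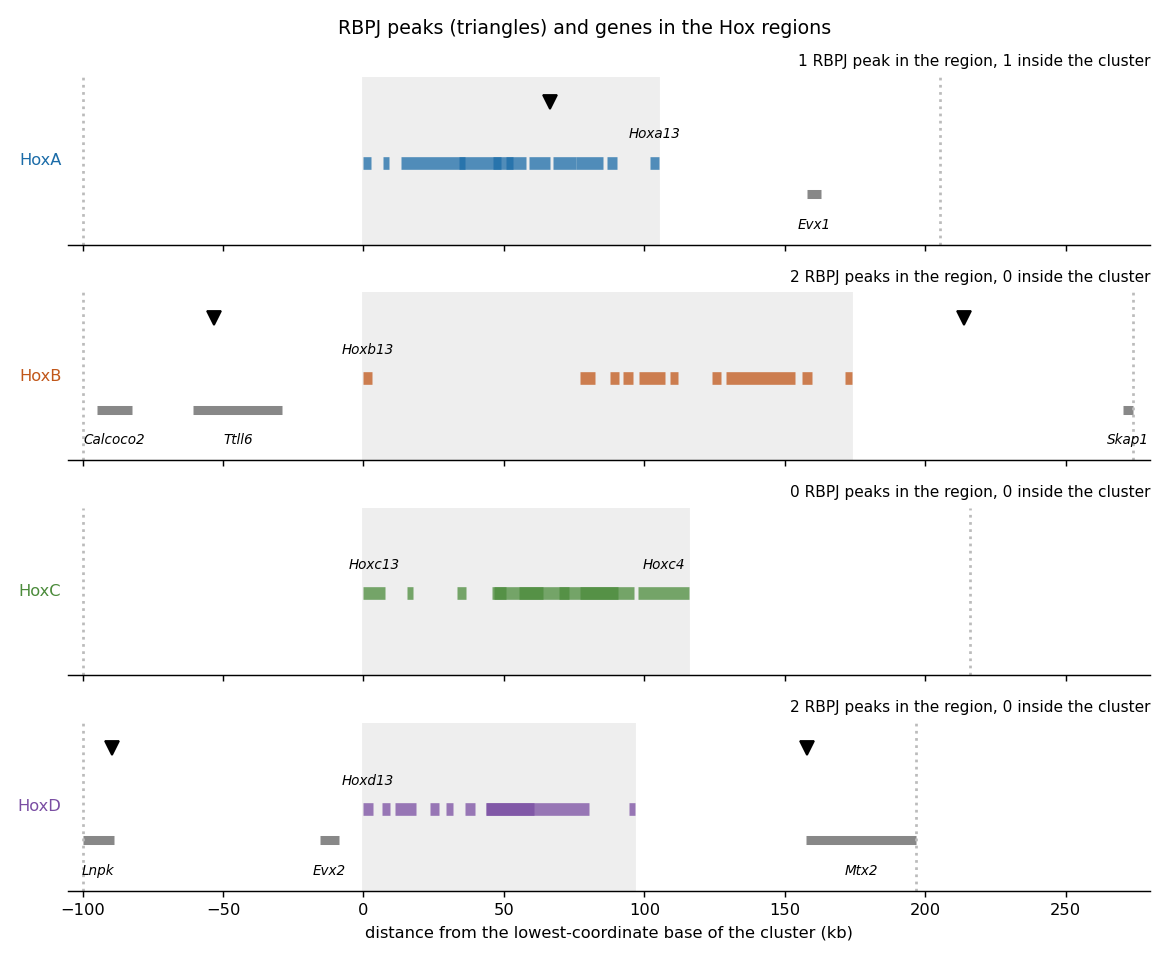
Positions of Hox genes (coloured bars), other named protein-coding genes (grey bars) and RBPJ peak centres (black triangles) in the 4 Hox regions, in kb from the lowest-coordinate base of each cluster. Shading marks the cluster, dotted lines the 100 kb limits, and overlapping genes appear darker. A triangle falls inside the shaded cluster at HoxA and in no other cluster.

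Hox promoters often have the base composition at which RBPJ peaks were frequent elsewhere. Promoters rich in CpG dinucleotides are commonly unmethylated and open to binding. They were defined here by at least 50% GC and an observed over expected CpG ratio of at least 0.6 in 1001 bp around a coding TSS. By this definition 28 of the 39 Hox genes had a CpG-rich promoter, namely all 11 of HoxA, 5 of HoxB, 5 of HoxC and 7 of HoxD. With the coding start of highest ratio taken for each gene, the median ratio was 0.72 at Hox genes and 0.61 at all genes. Of the 28 genes 1 had a peak within 1 kb (3.57%), whereas 47.7% of all 10940 genes of this class did. Among genes without such a promoter the share was 7.19%, and it was 0 of 11 at Hox genes. Neighbouring Hox genes share their surroundings and are not independent of each other, so the shares are set side by side without a test.

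At HoxA (chromosome 6, 52155590 to 52260880) the peak ran from 52221737 to 52222123, with a width of 387 bp. Its centre lay in no annotated gene, 76 bp upstream of the outermost coding start of Hoxa7. Hoxa7 has 4 coding starts, and the centre was 3219, 4425 and 4478 bp upstream of the other 3. The RefSeq promoter of Hoxa7 (52218524 to 52218823) lies around one of those downstream starts and not at the peak. The central 200 bp had a GC content of 63.0% and a CpG ratio of 0.60. The next Hox genes were Hoxa9, with its nearest coding start 4259 bp away, and Hoxa3, with one 8815 bp away through an upstream transcript. The peak was 13.2 kb from Hoxa6 and 13009 bp from Hoxa10, 17.3 kb from Hoxa5, 23.9 kb from Hoxa11 and 30.2 kb from Hoxa4. Towards the ends of the cluster the distances grew, with 38.9 kb to Hoxa13 on one side and 57.1 kb to Hoxa2 on the other. For all 11 HoxA genes this was the nearest peak.

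The HoxB cluster (chromosome 11, 96194316 to 96368256) held no peak, and 1 lay in each flank. On the 3′ side the interval from 96407797 to 96408026 (230 bp) was centred 39.7 kb beyond Hoxb1 in sequence outside annotated genes, and it was the nearest peak of Hoxb1 (42.2 kb from its TSS), of Hoxb2 (56.3 kb) and of Hoxb3 to Hoxb8 (64.1 to 125.2 kb). This stretch had 65.0% GC in its central 200 bp. On the 5′ side the interval from 96140880 to 96141198 (319 bp) was centred 53.3 kb from Hoxb13 in an intron of Ttll6, a tubulin glutamylase gene, with 47.0% GC and a CpG ratio of 0.09. It was the nearest peak of Hoxb13 and, at 130.4 kb, of Hoxb9.

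HoxD (chromosome 2, 74668310 to 74765142) also had no peak inside, and both of its flanking peaks sat at promoters of neighbouring genes of another kind. The interval from 74578329 to 74579211 (883 bp) lay 89.5 kb from Hoxd13, at the start of Lnpk, which encodes a protein of endoplasmic reticulum junctions. The centre fell in a Lnpk exon, 110 bp from an Lnpk transcript start and 306 bp from that of the divergent noncoding gene 4930445N08Rik. The interval from 74825745 to 74826480 (736 bp) was centred 61.0 kb beyond Hoxd1 in an intron of Mtx2, a mitochondrial import gene, 282 bp from the nearest Mtx2 transcript start. The nearest coding start of a Hox gene was 63.1 kb away at Hoxd1 and 80.4 kb away at Hoxd3, and the other HoxD genes had theirs at 89.5 to 121.0 kb from a peak. CpG ratios were 0.85 at Lnpk and 0.92 at Mtx2.

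No peak was found in the HoxC region (chromosome 15, cluster from 102921103 to 103036852) up to 100 kb on either side. The nearest was centred 128.7 kb beyond Hoxc4 (103165506 to 103165696, 191 bp), just outside the limit, and the nearest on the other side 250.1 kb beyond Hoxc13. Distances from coding starts were 131.2 kb at Hoxc4, 151.8 kb at Hoxc5 and 156.0 kb at Hoxc6, and ran from 175.0 kb at Hoxc8 to 244.5 kb at Hoxc13 for the remaining genes. At the other clusters, the members nearest to the 100 kb limit were the Lnpk peak at 89.5 kb inside it and a peak 129.0 kb from HoxB outside it.

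**Figure D2:**
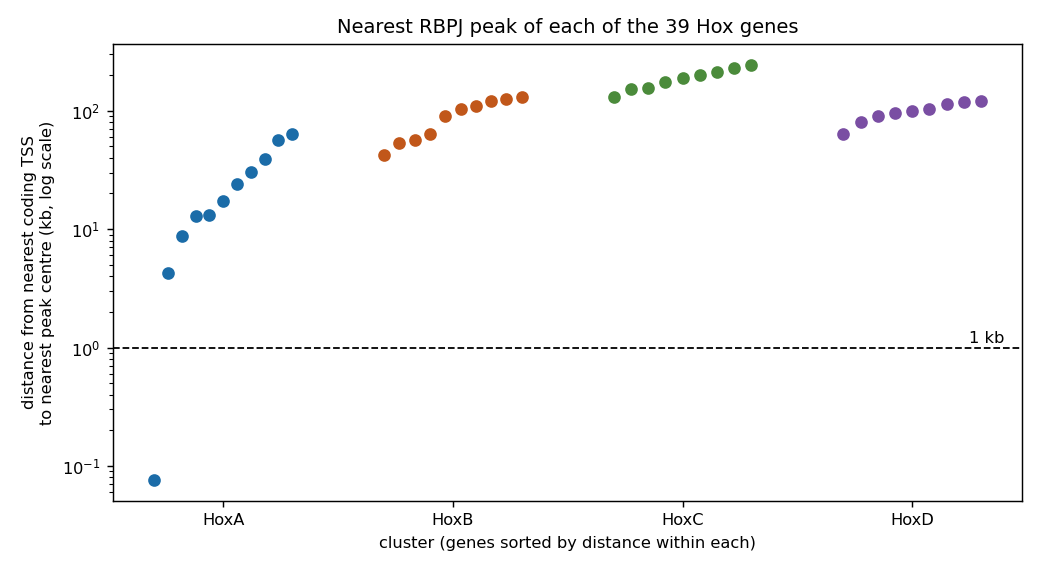
Distance from the nearest coding TSS of each Hox gene to the nearest RBPJ peak centre (kb, log scale), in a column for each cluster and sorted by distance within it. Hoxa7, at 76 bp, is the single point under the dashed 1 kb line, and the HoxC genes lie at 131 to 244 kb.

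By cluster, the median distance was 17.3 kb at HoxA, 97.0 kb at HoxB, 99.0 kb at HoxD and 189 kb at HoxC. The ranges of HoxB and HoxD overlapped (42.2 to 130 kb and 63.1 to 121 kb), whereas the HoxC genes all lay farther from a peak than the HoxD genes. By paralog class, the median was 60.1 kb for groups 1 to 3, 109 kb for groups 4 to 8 and 108 kb for groups 9 to 13. These ranges overlapped, and distances within a cluster follow from 6 nearest peaks that the 39 genes share. Over all Hox genes the median distance was 96.2 kb (quartiles 47.7 and 128 kb), and over all protein-coding genes 35.2 kb (quartiles 0.623 and 165 kb). The distributions crossed. Near peaks were few, with 3 Hox genes within 10 kb (Hoxa7, Hoxa9 and Hoxa3), yet no Hox gene was more than 244.5 kb from a peak.

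**Figure D3:**
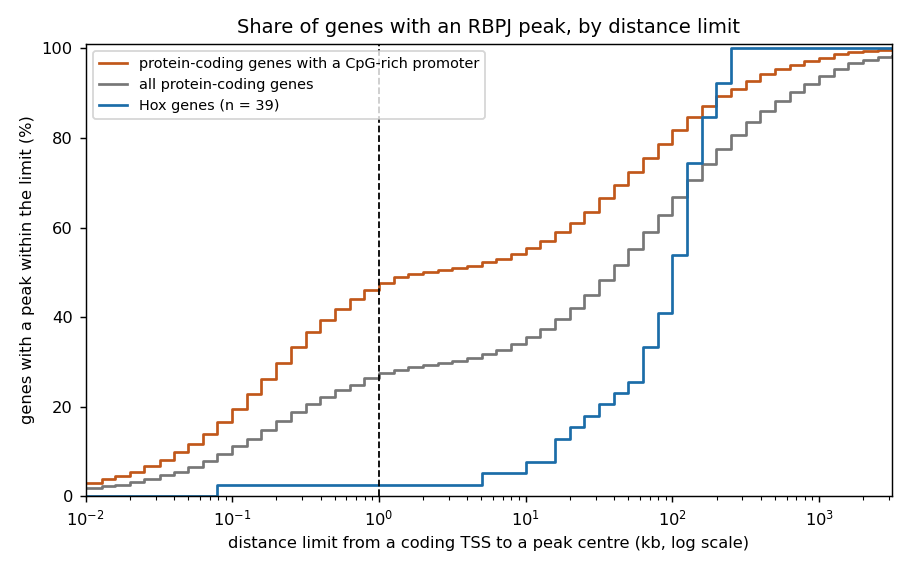
Share of genes (%) with an RBPJ peak centre within a given distance (kb, log scale) of a coding TSS, for the 39 Hox genes, all protein-coding genes and those with a CpG-rich promoter. At the dashed 1 kb line the shares are 2.56%, 27.4% and 47.7%, and the Hox line passes that of all genes beyond 100 kb.

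Peak density by length gave another view. The 4 regions together span 1292 kb and held 0.387 peaks per 100 kb, against 0.419 in the genome, while the clusters alone span 492 kb and held 0.203. The genome value includes the sparse chromosomes 4, 7, X and Y. The value depended on the flank, with 0.224 at 50 kb and 0.574 at 200 kb on either side. Relative to genes the regions were sparse, with 10.2 peaks per 100 protein-coding genes whose 5′ end they contain (49 genes), against 50.6 in the genome. The surroundings differed between clusters. The 1 Mb stretches beyond the 100 kb flanks held 35 peaks at HoxB and 36 at HoxC (1.75 and 1.80 per 100 kb). At HoxA and HoxD they held 9 and 10 (0.450 and 0.500 per 100 kb). The HoxB and HoxC clusters themselves held 0 peaks each. They lay in stretches of 267 and 495 kb between neighbouring peaks, so the peak-rich sequence began at some distance from them. The clusters contain 0 undetermined bases and 18.2% repeat-masked sequence, against 36.4% in the genome. Input reads and mappability at the clusters were not analysed here, and their part in the result was not tested.

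Genes were also linked to peaks through regulatory domains, which cover 5 kb upstream and 1 kb downstream of the 5′ end and extend towards the neighbouring domains by up to 1 Mb. By this rule 4 of 39 Hox genes (10.3%) had a peak, against 45.6% of all genes. They were Hoxa7, by its promoter peak, and the outer genes Hoxb1, Hoxb13 and Hoxc4, each by 1 peak outside the cluster. Domain length varied among Hox genes, from 6 kb at Hoxa3, Hoxa6 and Hoxb7 to 205 kb at Hoxc13, with 167 kb at Hoxc4, 81.6 kb at Hoxb9 and 6.70 kb at Hoxd13, and longer domains have more room for a peak.

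Other genes of the regions were examined as well. Of 10 protein-coding genes without a Hox symbol, Lnpk and Mtx2 had a peak within 1 kb of a transcript start, and 28.4% of all protein-coding genes had one by this measure. Evx1 and Evx2, homeobox genes beside HoxA and HoxD, had theirs at 91.6 and 80.6 kb. Of 59 noncoding genes other than pseudogenes, 1 had a peak within 1 kb, the divergent Lnpk neighbour, and the share over all such genes was also low (6.35%). The distance was 63.4 kb at Hotairm1, 40.8 kb at Hottip and 217.9 kb at Hotair, all long noncoding RNAs of the clusters, and 63.2 kb at Haglr. The microRNA genes Mir196b (8.2 kb), Mir10a (90.7 kb), Mir10b (100042 bp), Mir196a-1 (124.1 kb), Mir615 (150.7 kb) and Mir196a-2 (192.3 kb) had no peak within 1 kb either.

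The RBPJ core sequence was counted in the clusters, and its bearing on the number of peaks was not tested. TGGGAA, read on both strands, occurred 514 times in the 492 kb, or 1.05 times per kb, against 0.934 in the genome. There were 112 occurrences at HoxA, 192 at HoxB, 125 at HoxC and 85 at HoxD, where the rate was the lowest of the 4 (0.878 per kb). In the 5 region peaks the central 200 bp held it in 1 case, near the share of 25.8% over all 11094 peaks. Across their whole width 3 of the 5 had 1 match each, beyond Hoxb1, at Lnpk and at Mtx2, again near the share of all peaks (64.9%). The Mtx2 match, 268 bp from the peak centre, also extends to GTGGGAA, a longer form found somewhere in 29.3% of all peaks and in the central 200 bp of 9.28%. The Hoxa7 and Ttll6 peaks held no match at any position. TGANTCA, the AP-1 site, TGATTNAT, a joint site of Pbx and Hox proteins, and the DR5 retinoic acid response element were in none of the 5 intervals over their whole width. Over all peaks the whole-width shares were 30.7%, 8.35% and 0.442%, and the shares in the central 200 bp were 10.4%, 1.73% and 0.117%. These are matches of letters and were not assessed as sites.

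RefSeq promoters, from 250 bases before to 50 after a start, were available for 22 of the 39 Hox genes. Most were HoxA and HoxD genes, and Hoxb1, Hoxb4, Hoxb8 and Hoxc4 alone came from HoxB and HoxC. Of the 24 promoters of these genes, 5 contained TGGGAA (Hoxa3, Hoxa6, Hoxa9, Hoxa13 and Hoxd3), and 25.6% of all 32851 promoters did. The matches at Hoxa6 and Hoxa13, which lie upstream of the start and have no peak within 10 kb, are set beside those in the Lnpk and Mtx2 peaks, with 12 bases to either side and the match in capitals.
Hoxa6, chr6:52208761-52208790, minus strand: ctccggcgctctTTCCCAttggccgccgct
Hoxa13, chr6:52261095-52261124, minus strand: ggggtccctgtgTTCCCAgccccacccgcc
Lnpk, chr2:74578929-74578958, plus strand: ccggccaatgccTTCCCAtcaaaccccgcg
Mtx2, chr2:74826368-74826397, plus strand: ccaaggtttccgTGGGAAtagggcagcctc

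The 5 region peaks were 230, 319, 387, 736 and 883 bp wide, with a median of 387 bp. All peaks had a median of 690 bp (quartiles 382 and 1419 bp), so the peaks at the promoters of Lnpk and Mtx2 were of ordinary width, and the other 3 lay near or under the lower quartile.

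Genes for factors that act with or on Hox genes were counted in the same way, within 1 kb of a coding TSS, against 27.4% of all genes and 47.7% of those with a CpG-rich promoter. Most of these genes have such a promoter, namely 7 of 9 TALE, 10 of 10 Polycomb and 8 of 9 trithorax genes, so the second share is the closer background. Over members with a CpG-rich promoter alone, the counts were 5 of 7 TALE (71.4%), 7 of 10 Polycomb (70.0%) and 5 of 8 trithorax genes (62.5%). Of the 9 genes for TALE homeodomain proteins, which bind DNA together with Hox proteins, 5 had a peak (55.6%), among them Pknox1 (15 bp away), Pbx3 (212 bp), Meis2 (779 bp) and Meis1 (833 bp). The other 4 had theirs at 3.7 to 111.0 kb, and 1 of the 9 lies on a sparse chromosome. For Polycomb repressive complex 2, which deposits H3K27 methylation on silent Hox clusters, the count was 7 of 10. They were Rbbp7 (14 bp), Aebp2 (36 bp), Jarid2 (65 bp), Mtf2 (66 bp), the subunit gene Suz12 (120 bp), the catalytic subunit gene Ezh2 (160 bp) and Phf19 (191 bp). Ezh1, Eed and Rbbp4 had theirs at 26.9, 52.7 and 130.4 kb, and Eed and Rbbp4 lie on the sparse chromosomes 7 and 4, whereas Rbbp7, with a peak, lies on X.

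Of 9 trithorax group and H3K27 demethylase genes, 5 had a peak (55.6%), namely Men1 (46 bp), Wdr5 (190 bp), the methyltransferase genes Kmt2a (245 bp) and Kmt2b (261 bp), and the demethylase gene Kdm6a (520 bp). Of these, Kmt2b and Kdm6a lie on the sparse chromosomes 7 and X. Kdm6b was at 1.7 kb, and Dpy30, Ash2l and Rbbp5 were at 15.1 to 59.6 kb. Among 12 genes of retinoic acid signalling, the receptor genes Rara (245 bp), Rarb (767 bp) and Rarg (991 bp) had one, or 3 of the 10 with a CpG-rich promoter (30.0%). The 3 Rxr partner receptors (1.7 to 42.8 kb), the 3 Aldh1a synthesis enzymes and the 3 Cyp26 degrading enzymes (12016 bp to 1048.3 kb for both enzyme families) had none that near, although a start of Rxrb, 1677 bp from the centre, lies inside its peak of 4719 bp.

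**Figure D4:**
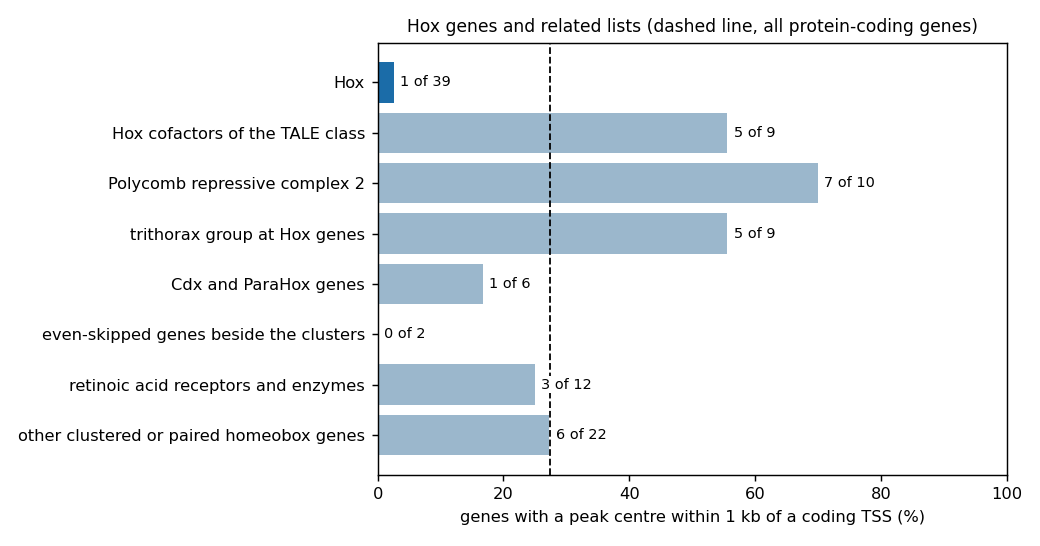
Share of genes (%) with an RBPJ peak centre within 1 kb of a coding TSS in each list, with counts beside the bars and all protein-coding genes as a dashed line at 27.4% (genes with a CpG-rich promoter, at 47.7%, are not drawn). The Hox genes reach 2.56%, the TALE cofactors 55.6% and Polycomb repressive complex 2 70.0%.

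A further list held homeobox genes of other families. Of these 22 clustered or paired homeobox genes, 6 had a peak within 1 kb (27.3%, against 27.4% of all genes), among them Irx5 (7 bp), Dlx4 (54 bp), Emx2 (55 bp), Otx1 (513 bp) and Irx3 (655 bp). Among the 21 members with a CpG-rich promoter the count was 5 (23.8%, against 47.7%). A start of Six2, 1387 bp from the centre, lies inside its peak of 3610 bp. The nearest start of a second gene in some pairs was distant, such as Dlx3 at 26.1 kb and Emx1 at 51.8 kb. Of 6 Cdx and ParaHox genes, the evolutionary relatives of the Hox clusters, Gsx1 had a peak at 129 bp. Pdx1 and Cdx2, which lie beside it, were 81.1 and 118.4 kb from the same interval of 356 bp. Gsx2 and Cdx4 had theirs at 32.9 and 295.6 kb. Cdx1 lay inside an interval of 185896 bp, 12.7 kb from its centre. The median width of all peaks was 690 bp, so this interval does not place RBPJ at Cdx1. Differences between the lists were not tested.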

How the data were processed

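RBPJ ChIP-seq peak lists of 2 samples of RD1 pericytes were used, and the other 8 samples of the series were not analysed here. The study's methods state that reads were aligned to GRCm38 with bowtie, duplicates were removed, peaks were called in each replicate with MACS2 and PeakRanger, neighbouring calls were merged, intervals found by most calls were kept and blacklisted regions were dropped. The deposited values are chromosome, start and end in bp of 1 consensus list, without a score. The list carries no depth per sample. Merging widens intervals, so the centre need not be the bound position, and a site under the calling threshold leaves no trace in such a list.

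Starts were read as counted from 1. Chromosome names fit the reference (GRCm38.p6, GENCODE M21), and 0 peaks passed a chromosome end. Distances run from the peak centre to the 54327 starts of protein-coding transcripts, and motifs were searched on both strands. No test was made, since the list has no replicate values. The Hox genes, related lists and named genes were chosen with earlier results of these data known. All 39 Hox genes enter the counts, and genes of related lists with a peak within 1 kb are named, except that some items are not reported here. Peaks planted at known distances were recovered by the distance and domain steps. Alternatives changed the flank, the TSS set and its distance limit, the domain size, the motif window, or kept peaks of at least 500 bp. Software was Python 3.11.15 with numpy 2.4.6, pandas 2.3.3 and, for plots, matplotlib 3.10.9.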

Additional observations from a re-analysis of the deposited data

How the results depend on the processing

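Hox genes with a promoter peak numbered 0 to 2 of 39 under the alternatives run. The count was 2 within 5 kb, where Hoxa9 is added, and 0 among peaks of at least 500 bp, which drops the 387 bp Hoxa7 interval by construction. With the peak edge, a limit of 500 bp, gene 5′ ends or all annotated transcripts it was 1. Region peaks numbered 1 in the clusters alone, 2 with a flank of 50 kb, 12 with a flank of 200 kb and 2 among peaks of at least 500 bp, as the change in searched length or width makes them. Hox genes with a peak in their domain numbered 1 with the basal part alone and 0 among the wider peaks. Region peaks with the motif numbered 3 over whole peaks, 0 for GTGGGAA and 0 among the wider peaks, and their median width was then 809 bp. Related genes with a promoter peak ran from 22 to 32 around 27. Without RBPJ replicate 1 or 2 the values were the same, because both files are 1 list. No paired analysis was possible because no result compares samples. The restriction to CpG-rich promoters and the exclusion of chromosomes 4, 7, X and Y were chosen after seeing the data. A gene without a listed peak cannot be read as unbound, since depth and peak strength are unknown here.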

Other observations

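Seen along the chromosome, the Hox clusters were among the stretches richest in CpG-rich promoters that hold no promoter peak. This measure was chosen after the positions of the peaks had been seen. For each of 10626 stretches between neighbouring peaks outside chromosomes 4, 7, X and Y, the genes with a CpG-rich promoter and no peak within 1 kb were counted by their 5′ end. The stretch with the most (12) held mostly replication-dependent histone genes on chromosome 13. The next number, 8, was reached by the HoxD stretch of 247 kb, with 7 Hox genes and Evx2, and by the HoxA stretch of 209 kb on the 3′ side of the Hoxa7 peak, with 6 Hox genes, where 2 further gene models overlap the Hox genes, as well as by stretches on chromosome 11. The HoxA stretch beyond Hoxa7, with Hoxa9 to Hoxa13, Evx1 and more distant genes, had 7 in 517 kb. At least 7 such genes were found in 10 stretches, and 3 of these were Hox stretches. The HoxC stretch of 495 kb had 6 and the HoxB stretch of 267 kb had 5. By length alone the Hox stretches were less unusual, with ranks from 1079 to 2497 among 11073 over all chromosomes. With chromosomes 4, 7, X and Y included, the 209 kb HoxA stretch and the HoxD stretch shared rank 60 by the number of CpG-rich promoters, and the 517 kb HoxA stretch, HoxC and HoxB had ranks 73, 94 and 122. The cause was not tested.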
